A study of Mus musculus with 59 samples.

Results

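The complement components and receptors of microglia were followed here as 9 genes: C1qa, C1qb and C1qc, the chains of the recognition protein C1q, the central components C3 and C4b, the alternative pathway genes Cfb (factor B) and Cfp (properdin), and the receptors C3ar1 and C5ar1. They were taken by name from the 32070 genes of both deposited tables, and all 9 were found in each. The genes were measured by RNA sequencing in primary microglia, the macrophages of the brain parenchyma, cultured from pups at P0 or P1. The question was what loss of the kinase Tbk1 does to microglia at rest and under stimulation.

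Per the labels, KO cultures were Tbk1fl/fl with Cx3CR1-Cre, HET cultures were Tbk1fl/+ with Cx3CR1-Cre, and WT cultures were Tbk1fl/fl without Cre. Deletion depends on the Cx3cr1 driver and so on the cells that use it. A difference from WT holds Cre as well as Tbk1, while KO and HET both carry Cre. After 16 h in culture the cells received LPS at 100 ng/mL, IL4 at 20 ng/mL, poly(I:C) (pIC, which mimics viral double-stranded RNA, at a dose the labels used here do not state) or were left untreated (UT), for 24 h. Of the 12 groups, 11 had 5 libraries each from independent cultures, and untreated WT had 4, since its replicate 5 was not analysed here. The LPS, IL4 and UT libraries (44) form 1 table and the pIC libraries (15) another, so nothing was tested between pIC and the other treatments.

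Complement is a cascade of plasma-type proteins. C1q starts the classical pathway, and the cascade converges on cleavage of C3, which tags targets for uptake and releases the small peptide C3a, before C5 is cleaved in turn. In the brain microglia are the main source of C1q, and tagging of synapses with C1q and C3 is known to guide their removal by microglia during development. Factor B and properdin form and stabilise the convertase of the alternative pathway, and C3ar1 and C5ar1 are the G protein-coupled receptors for the peptides C3a and C5a.

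The 3 C1q genes lie next to each other on chromosome 4 within 18719 bases, from 136880126 to 136898844 (RefSeq, GRCm38.p6, the assembly that mm10 names). On chromosome 17, C4b (34728139 to 34743902), C4a (34809092 to 34823460), Cfb (34856374 to 34862514) and C2 (34862602 to 34882100) lie close together and C3 lies apart (57203967 to 57228136). C3ar1 lies on chromosome 6 (122847140 to 122856157), C5ar1 on chromosome 7 (16246743 to 16259540) and Cfp on chromosome X (20925454 to 20931555). C4a and C4b are near-identical copies, so reads can be split between them and the values of C4b are uncertain. Whether reads were counted by strand is not stated in the sources used here.

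RefSeq's promoter table held 6 of the 9 members: C1qb, C1qc, C3, Cfp, C3ar1 and C5ar1. The 250 bases before the start site were searched for 6 short motifs on both strands, and the promoters of 4 members whose levels moved most differently are printed, each on the minus strand and read 5′ to 3′ towards the start site. Capitals mark the motif matches. They lie at chr4:136886201-136886450 for C1qb, chr17:57228137-57228386 for C3, chrX:20931556-20931805 for Cfp and chr6:122856158-122856407 for C3ar1.
C1qb: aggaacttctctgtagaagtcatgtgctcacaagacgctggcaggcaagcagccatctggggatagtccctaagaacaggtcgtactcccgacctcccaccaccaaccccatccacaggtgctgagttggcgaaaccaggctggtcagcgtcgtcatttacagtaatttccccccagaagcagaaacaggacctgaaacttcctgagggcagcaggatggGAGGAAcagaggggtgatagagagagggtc
C3: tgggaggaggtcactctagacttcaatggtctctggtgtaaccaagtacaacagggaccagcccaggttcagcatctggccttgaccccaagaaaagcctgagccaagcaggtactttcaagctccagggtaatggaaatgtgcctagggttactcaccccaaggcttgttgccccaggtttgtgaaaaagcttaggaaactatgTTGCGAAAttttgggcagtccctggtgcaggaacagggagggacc
Cfp: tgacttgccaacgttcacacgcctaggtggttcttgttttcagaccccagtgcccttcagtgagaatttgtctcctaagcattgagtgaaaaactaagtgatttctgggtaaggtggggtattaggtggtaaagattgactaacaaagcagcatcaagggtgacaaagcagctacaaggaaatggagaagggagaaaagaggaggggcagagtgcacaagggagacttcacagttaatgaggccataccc
C3ar1: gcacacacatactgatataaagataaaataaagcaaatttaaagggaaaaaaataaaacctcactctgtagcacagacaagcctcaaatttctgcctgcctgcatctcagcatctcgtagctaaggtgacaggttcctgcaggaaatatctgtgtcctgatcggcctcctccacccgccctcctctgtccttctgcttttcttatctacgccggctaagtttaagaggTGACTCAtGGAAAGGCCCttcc

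In C3ar1 the motif of AP-1 (TGANTCA) matched from base -22 to base -16 and that of NF-kB (GGG and TTCC with 3 bases between, here on the other strand) from base -14 to base -5, counted back from the start site. In C3 the motif of C/EBP (TTGCNNAA) matched from base -45 to base -38. The motif of PU.1 (GAGGAA), the macrophage lineage factor, matched in C1qb and C1qc. The windows of Cfp and C5ar1 held none of these, and the ISRE (a pair of GAAA with 2 bases between) and GAS (TTCNNNGAA) motifs matched in none of the 6 windows. The C5ar1 window (chr7:16259339-16259588) lies mostly inside the gene's span, which ends at 16259540. It therefore says little about the sequence before the gene. The C1qc window starts at 136892915, just inside that gene's end at 136892936. Among 32851 RefSeq promoter windows of this length, 6.75% held the AP-1 motif, 4.65% NF-kB, 9.56% C/EBP, 23.3% PU.1, 2.98% ISRE and 7.02% GAS. No 2 of these motifs overlapped in the members. A match is a string of letters and not a measured site.

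Values are TPM, the authors' length-scaled share of transcripts, which has a fixed sum per library and keeps no depth. Log2 differences are of log2(TPM + 1), given as estimate ± SE from limma with p adjusted over all genes tested (15908 in the LPS, IL4 and UT table, 13919 in the pIC table), and a gene is called at 0.05. In a culture, fewer cells of a type and less RNA per cell cannot be told apart. Between 12428 and 14581 genes reached 1 TPM per library. Tbk1 was lower in KO than in WT in every treatment, at 12.1 to 25.8 TPM under LPS against 81.9 to 101.2 TPM in WT. Untreated, it had 16.5 to 27.8 TPM in KO, 32.3 to 36.9 TPM in HET and 45.1 to 53.8 TPM in WT. The log2 difference of KO from WT was -2.31 ± 0.14 under LPS and -1.77 ± 0.11 under pIC. It was smaller under IL4 (-1.48 ± 0.14) and untreated (-1.24 ± 0.15). Of 12 microglia markers 12 were detected, and their summed TPM ran from 6526 to 8179 over the untreated groups and from 1597 to 2641 over the LPS groups. The oligodendrocyte lineage markers were also present, from 544 to 2389 summed TPM in untreated libraries, so the libraries also held RNA of that lineage.

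All 9 members were called between LPS and UT in WT cells, 6 higher and 3 lower. With a pseudocount of 0.1 or with quantile normalization 8 were called. The C1q genes fell, C3, Cfb and Cfp rose steeply, and C4b, C3ar1 and C5ar1 rose by smaller amounts. Of all genes tested in WT, 75.8% were called between LPS and UT, 13.9% higher and 61.9% lower, so being called is common there. The members' median log2 difference was 0.80 in WT, against -0.59 over all genes. In KO 3 members were higher and 4 lower, where 69.6% of all genes were called, 13.1% higher and 56.5% lower. In HET 5 members were higher and 3 lower, where 74% were called, 14.3% higher and 59.7% lower. A rise of abundant genes lowers every other TPM, and with median-of-ratios scaling the median of all genes was -0.06 in WT. The directions given below for C1q, C3, Cfb and Cfp were the same under that scaling and under quantile normalization. Markers of microglia and of other cells moved with LPS too. Of 12 microglia markers 10 were lower in WT and 2 higher, with a median log2 difference of -2.72. Of 5 tested border macrophage markers 2 were higher and 2 lower. In WT 9 of 10 oligodendrocyte lineage and 6 of 8 neuron markers were lower and 0 higher. Of 9 astrocyte markers 6 were lower and 1, Gja1, rose by 2.26. Of 9 vascular and stromal markers 3 were higher and 2 lower. S100a8 rose by 4.76 while Ccr2 was lower (-0.42), with monocyte and neutrophil sums of 70.4 to 106 TPM with LPS and 1.83 to 5.40 TPM untreated. With LPS 4 of the 5 genes in that sum averaged below 1 TPM in WT, so the sum rests on 1 gene. The part of these cells in the members' changes was not tested.

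C1qa encodes the A chain of C1q. With LPS it had 1934, 1144, 1423, 403 and 427 TPM in KO, against 658, 687, 591, 617 and 803 TPM in HET and 842, 666, 629, 626 and 580.0 TPM in WT. Untreated cultures had 2473, 2674, 2126, 2266 and 2649 TPM in KO, 2469 to 3065 TPM in HET and 2481, 2605, 2311 and 2129.6 TPM in WT. All LPS libraries lay below all untreated ones of their genotype, and the KO libraries spread on both sides of the WT range. C1qa fell with LPS by 1.45 ± 0.22 on the log2 scale in KO, 2.01 ± 0.22 in HET and 1.84 ± 0.24 in WT (adjusted p at most 5.83e-07).

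C1qb had 1574, 767, 1028, 329.7 and 379.5 TPM in LPS-treated KO cells, 718 to 959 TPM in HET and 765 to 995 TPM in WT. Untreated cultures had 2035 to 2349 TPM in KO, 2249 to 2599 TPM in HET and 1984 to 2379 TPM in WT. It fell with LPS by 1.67 ± 0.21 in KO, 1.56 ± 0.21 in HET and 1.34 ± 0.22 in WT. C1qc had 1206, 542, 768, 202 and 228.5 TPM with LPS in KO, against 358 to 579 TPM in HET and 418 to 625 TPM in WT. It fell by 2.43 ± 0.25 in KO, 2.64 ± 0.25 in HET and 2.38 ± 0.26 in WT, the largest estimate of the 3 chains in each genotype.

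The spread of the C1q genes among KO libraries under LPS was wide, with an SD of 658 TPM around a mean of 1066 for C1qa, against 102 around 669 in WT. KO replicates 1 and 3 were above every WT library for all 3 chains, and KO replicates 4 and 5 were below every WT library. Limma's SE and p rest on a spread pooled over all LPS, IL4 and UT groups. For the C1q genes they therefore do not carry the wider spread of KO under LPS, with or without a library left out. Across KO, HET and WT no C1q gene was called under LPS. C1qa differed between KO and WT by 0.42 ± 0.22 (adjusted p = 0.187), and by 0.70 (adjusted p = 0.0065) without KO replicate 4 or 0.68 (adjusted p = 0.0108) without KO replicate 5. C1qb differed by -0.32 ± 0.21 (adjusted p = 0.283), and by -0.62 (adjusted p = 0.00379) without KO replicate 1. Against HET the same libraries brought the same calls, for C1qa without KO replicate 4 (0.69, adjusted p = 0.00837) or 5 (0.67, adjusted p = 0.0138) and for C1qb without KO replicate 1 (-0.54, adjusted p = 0.0129). Tbk1 in the same KO libraries was 12.1, 19.4, 17.7, 25.8 and 15.2 TPM from replicate 1 to replicate 5, and its part in the spread was not tested.

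**Figure D1:**
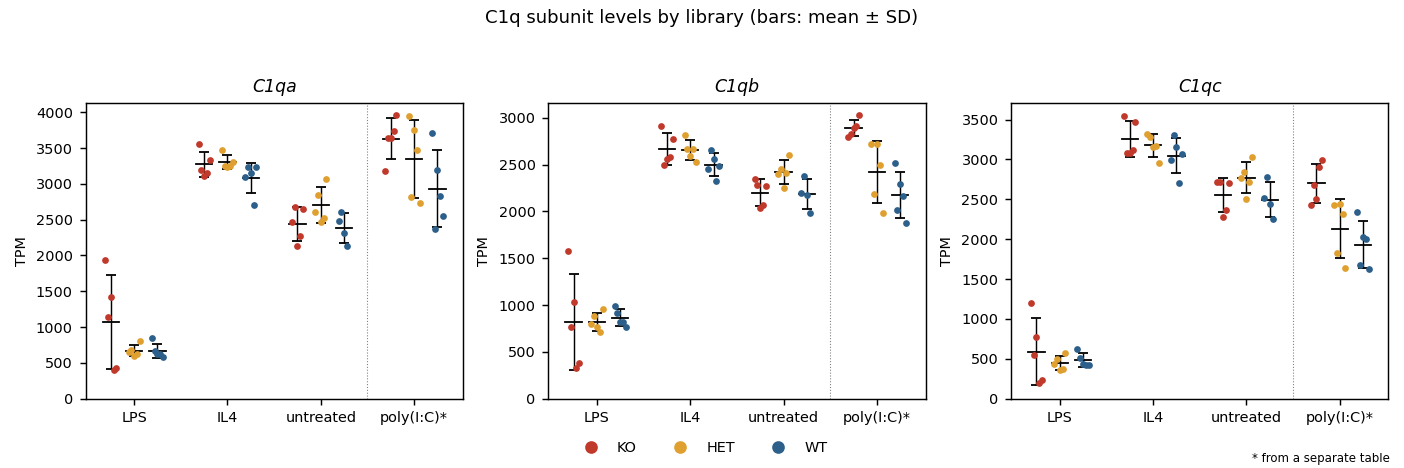
TPM (vertical axis) of C1qa, C1qb and C1qc in every library by treatment, with KO, HET and WT from left to right in each. Points are libraries and bars the mean ± SD of 5 libraries (4 for untreated WT). LPS libraries lie below all others for each chain, and the KO libraries under LPS are spread from 403 to 1934 TPM for C1qa.

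The balance between the chains differed between KO and the other genotypes under LPS. The ratio of C1qa to C1qb within a library does not depend on how that library is scaled. Under LPS it was 1.23, 1.49, 1.38, 1.22 and 1.13 in KO, against 0.775 to 0.86 in HET and 0.723 to 0.847 in WT, with no overlap. On the log2 scale the ratio was 0.74 ± 0.08 (SE) higher in KO than in WT and 0.65 ± 0.08 higher than in HET (two-sided exact permutation test, p = 0.00794 in both, the smallest that 5 against 5 allows, and 0.033 after Benjamini-Hochberg adjustment over 54 ratio tests). Untreated, the ratio differed between KO and WT by 0.02 ± 0.04 (exact permutation p = 0.635). Against untreated cells the log2 ratio with LPS differed by 0.22 ± 0.08 in KO, which missed the threshold, and fell by 0.45 ± 0.04 in HET and by 0.50 ± 0.04 in WT (exact permutation p = 0.0238 in KO, 0.00794 in HET and 0.0159 in WT, adjusted 0.0559, 0.033 and 0.0408). Under pIC the ratio was lower in KO than in HET by 0.14 ± 0.04, with overlap (exact permutation p = 0.0159, adjusted 0.0408). These ratios were chosen for testing after the values had been seen.

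The ratio of C1qc to C1qb under LPS was 0.602 to 0.766 in KO, 0.469 to 0.604 in HET and 0.51 to 0.628 in WT. The KO libraries overlapped both other groups, and the log2 difference was 0.30 ± 0.09 from WT (exact permutation p = 0.0238, adjusted 0.0559) and 0.34 ± 0.09 from HET (p = 0.0159 by the same exact test, adjusted 0.0408). LPS lowered this ratio in all genotypes, by 0.76 ± 0.07 in KO, 1.08 ± 0.06 in HET and 1.04 ± 0.05 in WT.

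**Figure D2:**
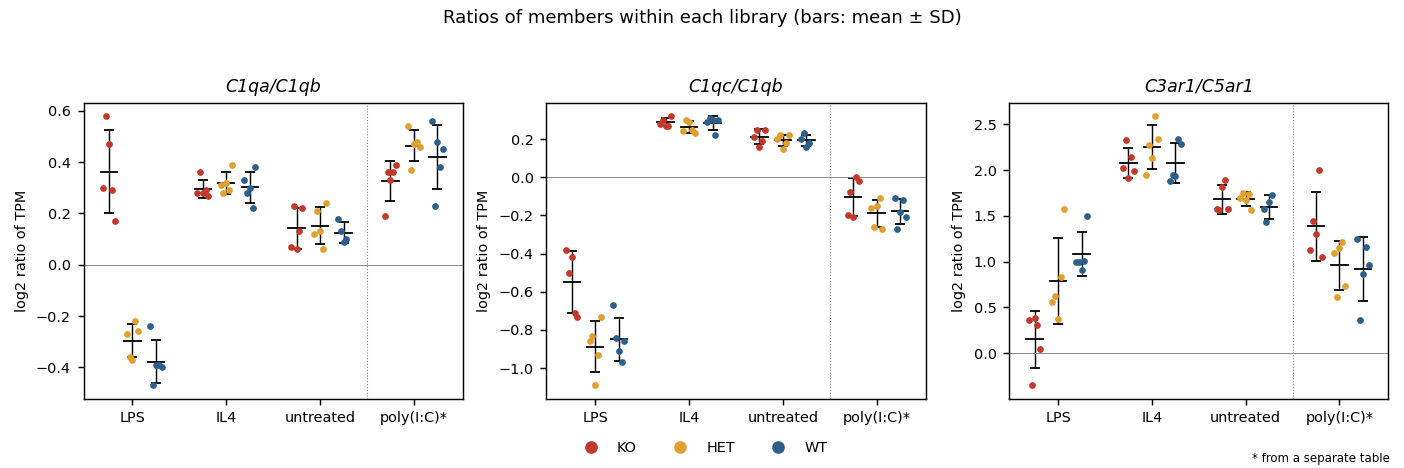
Log2 ratio of TPM (vertical axis) within each library for C1qa to C1qb, C1qc to C1qb and C3ar1 to C5ar1, by treatment with KO, HET and WT from left to right. Points are libraries, bars the mean ± SD. Under LPS the KO libraries lie above 0 for C1qa to C1qb while all HET and WT libraries lie below 0.

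No C1q gene was called between IL4 and UT. C1qa had 3112 to 3551 TPM with IL4 against 2126 to 2674 TPM untreated in KO, 3232 to 3479 against 2469 to 3065 TPM in HET and 2711 to 3232 against 2130 to 2605 TPM in WT. The IL4 libraries lay above all untreated ones of their genotype, but the log2 differences of 0.43 ± 0.22, 0.30 ± 0.22 and 0.37 ± 0.24 in KO, HET and WT were not called (adjusted p = 0.307, 0.533 and 0.399). A fit of the compared groups alone, with its own estimate of spread, called C1qa in all 3 genotypes (adjusted p = 0.00972, 0.0378 and 0.0484). In KO it also called C1qb (0.28, adjusted p = 0.039) and C1qc (0.35, adjusted p = 0.024), whose IL4 and untreated libraries did not overlap either. The C1qa to C1qb ratio was also higher with IL4 than untreated, by 0.15 ± 0.04 in KO, 0.16 ± 0.04 in HET and 0.18 ± 0.03 in WT, without overlap (exact permutation, adjusted p at most 0.0408).

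Under pIC the C1q genes were at 1621 to 3956 TPM, and 2 of them were higher in KO than in WT. C1qb had 2793, 2831, 2891, 2917 and 3026 TPM in KO, 1983 to 2725 TPM in HET and 2512, 2020.2, 2292, 2169 and 1872 TPM in WT. No KO library overlapped WT or HET. C1qb was higher in KO than in WT by 0.42 ± 0.10 (adjusted p = 0.0141) and C1qc by 0.49 ± 0.13 (adjusted p = 0.0218). C1qa differed by 0.32 ± 0.13 (adjusted p = 0.123). Against HET, which also carries Cre, neither C1qb (0.27 ± 0.10, adjusted p = 0.142) nor C1qc (0.36 ± 0.13, adjusted p = 0.126) was called. With quantile normalization the differences of C1qb and C1qc were 0.32 (adjusted p = 0.106) and 0.35 (adjusted p = 0.237), and C1qc was not called with no filter (adjusted p = 0.0577), without WT replicate 2 (adjusted p = 0.0556) or KO replicate 5 (adjusted p = 0.053).

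C3, the central component, was low in untreated cells and was raised by LPS and by IL4. With LPS C3 had 311, 422, 535, 476 and 436.5 TPM in KO, 296, 220.3, 342.5, 334 and 299 TPM in HET and 285, 198, 307.0, 223 and 253 TPM in WT. Every KO library under LPS lay above every WT library, while KO and HET overlapped. Untreated libraries had 4.13 to 11.1 TPM in KO, 5.17 to 9.45 TPM in HET and 3.19 to 15.4 TPM in WT. The rise with LPS was 5.81 ± 0.26 in KO, 5.15 ± 0.26 in HET and 5.06 ± 0.27 in WT on the log2 scale.

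Under LPS C3 was higher in KO than in WT by 0.78 ± 0.26 (adjusted p = 0.0196), and 27.6% of all genes were called in that comparison. The call was lost without WT replicate 2 (adjusted p = 0.0598) or KO replicate 3 (adjusted p = 0.0555). The difference from HET was 0.54 ± 0.26 (adjusted p = 0.136), called in a fit of those groups alone (adjusted p = 0.0448), and the test of the genotype difference in LPS response was not called against WT (0.74 ± 0.38, adjusted p = 0.193).

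IL4 also raised C3. KO cells had 20.3 to 39.8 TPM with IL4, HET cells 18.3 to 48.7 TPM and WT cells 13.8 to 24.8 TPM. The rise was 1.97 ± 0.26 in KO, 1.82 ± 0.26 in HET and 1.37 ± 0.27 in WT (adjusted p at most 0.000652), and C3 was the only member called with IL4 in HET and WT, where 7.05% and 6.31% of all genes were called. In WT the IL4 and untreated ranges overlapped through WT replicate 2, and a fit of those groups alone gave adjusted p = 0.0609. C3 under IL4 differed between KO and WT by 0.64 ± 0.26 (adjusted p = 1).

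C3 reached its highest levels under pIC, at 2578, 2054, 2931, 1594 and 2294 TPM in KO, 1758 to 2356 TPM in HET and 2069.7, 1539, 2127, 1396 and 1609 TPM in WT. The genotypes overlapped, and KO exceeded WT by 0.38 ± 0.16 (adjusted p = 0.125). With the replicate number as a block the adjusted p was 0.020, and without KO replicate 4 the difference was 0.50 (adjusted p = 0.0325).

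C4b, the classical pathway component that C1s cleaves, stayed low throughout, with means from 0.45 to 4.75 TPM over the 12 groups. Under LPS it had 1.55, 2.39, 1.38, 0.56 and 0.274 TPM in KO, 3.97, 4.16, 1.57, 1.62 and 1.94 TPM in HET and 6.54, 2.97, 2.20, 3.09 and 1.38 TPM in WT. The groups overlapped, and KO was lower than WT by 0.90 ± 0.27 (adjusted p = 0.0107) and lower than HET by 0.73 ± 0.27 (adjusted p = 0.0492). The call against HET was lost without any 1 of 6 of the 10 libraries (adjusted p = 0.0524 to 0.18) and with a pseudocount of 0.1, no filter or a fit of those groups alone. The call against WT was lost without WT replicate 1 (adjusted p = 0.0649) or KO replicate 5 (adjusted p = 0.0545), and in a fit of those groups alone (adjusted p = 0.0946). LPS raised C4b in HET by 1.05 ± 0.27 and in WT by 0.80 ± 0.29, and in KO the change of 0.34 ± 0.27 was not called (adjusted p = 0.269), although it was under median-of-ratios scaling (0.59, adjusted p = 0.0437) and quantile normalization (0.73, adjusted p = 0.00762). The rise in WT was lost with a pseudocount of 0.1 (adjusted p = 0.062) and without WT LPS replicate 1 (adjusted p = 0.0724).

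Within groups C4b went with the replicate number. Replicate 1 or replicate 2 held the highest C4b in all 12 groups, 6 each, and replicate 5 the lowest in 10 of the 11 groups that have one. Replicate 5 also held the lowest summed TPM of the 10 oligodendrocyte lineage markers in all 11 and of the 10 astrocyte markers in 10. The summed oligodendrocyte markers were 189 to 612 TPM in KO, 184 to 537 TPM in HET and 164 to 821 TPM in WT under LPS, with none of the 10 genes at 0 throughout a group, and the part of these cells in the values of C4b was not tested.

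Cfb, whose protein supplies the protease of the alternative pathway convertase, was high under LPS and pIC. It was at 0 to 1.52 TPM with IL4 and 0 to 0.96 TPM in untreated libraries, so it passed the filter on low values in that table through the LPS libraries alone. With LPS it had 410.0, 342, 312, 341 and 284 TPM in KO, 326.5 to 456 TPM in HET and 344, 508, 332, 447 and 278.5 TPM in WT. The fitted rise was 8.00 ± 0.21 in KO, 8.29 ± 0.21 in HET and 8.21 ± 0.22 in WT, a size that depends on the pseudocount because the untreated values are near 0. The genotypes overlapped under LPS, and KO differed from WT by -0.15 ± 0.21 (adjusted p = 0.67).

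Under pIC Cfb had 711, 484, 749, 248 and 506 TPM in KO, against 709, 876, 802, 826 and 894 TPM in HET and 715, 967, 893.5, 729 and 647 TPM in WT. KO replicates 2, 4 and 5 were below all HET and WT libraries and the others were not. The differences of -0.70 ± 0.23 from HET (adjusted p = 0.0872) and -0.63 ± 0.23 from WT (adjusted p = 0.0803) missed the threshold. Without KO replicate 3 they were -0.84 (adjusted p = 0.0446) and -0.78 (adjusted p = 0.0382).

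Cfp, which encodes properdin, the positive regulator of the alternative pathway, was raised by LPS, and its pIC libraries stood far below that level. With LPS it had 1191, 879, 1206, 771 and 900.2 TPM in KO, 889, 689, 886, 929 and 591 TPM in HET and 799.8, 592, 788, 668 and 438 TPM in WT. Untreated libraries had 39.4 to 79.8 TPM in KO, 46.6 to 59.7 TPM in HET and 41.7 to 51.1 TPM in WT. The rise was 4.17 ± 0.17 in KO, 3.88 ± 0.17 in HET and 3.71 ± 0.18 in WT. Under LPS Cfp was higher in KO than in WT by 0.60 ± 0.17 (adjusted p = 0.00624), with overlapping libraries, and by 0.31 ± 0.17 than in HET (adjusted p = 0.213).

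In the pIC table Cfp had 54.3 to 94.4 TPM in KO, 65.9 to 92.6 TPM in HET and 59.9 to 91.1 TPM in WT, so its levels there were near those of IL4, which were 60.2 to 121 TPM in KO and 60.9 to 65.9 TPM in WT. C3 stood the other way, with all pIC libraries above all LPS libraries in each genotype, although the tables were not compared by a test. Cfp in KO was called higher with IL4 than untreated (0.58 ± 0.17, adjusted p = 0.0245), one of 2 members called there, where 8.41% of all genes were. That call was lost without any 1 of 5 libraries and with no filter (adjusted p = 0.0506), quantile normalization (adjusted p = 0.0521) or a fit of those groups alone (adjusted p = 0.146).

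**Figure D3:**
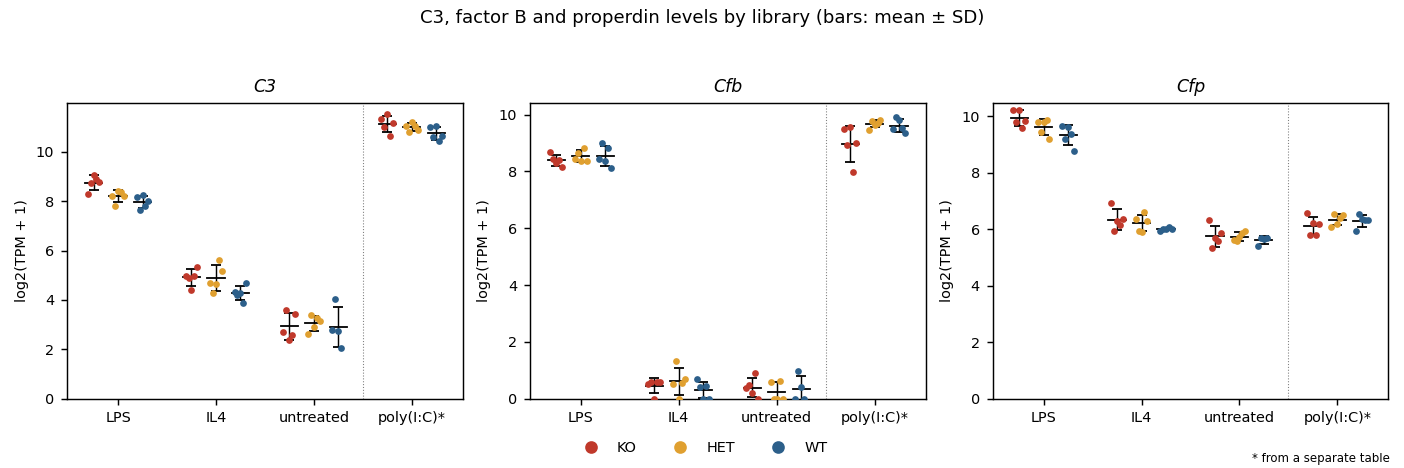
Level as log2(TPM + 1) (vertical axis) of C3, Cfb and Cfp in every library by treatment, with KO, HET and WT from left to right. Points are libraries, bars the mean ± SD. C3 and Cfb are high in LPS and pIC libraries, and Cfp is high in LPS libraries and far lower in pIC libraries. For Cfp the pIC libraries lie above the untreated ones in WT (59.9 to 91.1 against 41.7 to 51.1 TPM). They do so in HET too (65.9 to 92.6 against 46.6 to 59.7 TPM), and overlap them in KO. No test was made between pIC and the other treatments.

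C3ar1, the receptor for C3a, showed the largest genotype differences among the members. With LPS it had 329, 144.5, 249, 152 and 171 TPM in KO, against 571, 521, 453, 506 and 697 TPM in HET and 629, 649.6, 558, 592 and 698 TPM in WT. Every KO library lay below every HET and WT library. With IL4 C3ar1 had 521 to 625 TPM over the 3 genotypes, and untreated it had 474 to 597 TPM in KO, 469.7 to 559 TPM in HET and 445 to 551 TPM in WT. KO under LPS was lower than WT by 1.65 ± 0.13 (adjusted p = 7.75e-13) and lower than HET by 1.45 ± 0.13 (adjusted p = 3.23e-11), with 24% of all genes called in the comparison with HET.

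The LPS response of C3ar1 itself differed by genotype. C3ar1 fell with LPS in KO, by 1.38 ± 0.13 (adjusted p = 9.49e-12), rose in WT by 0.35 ± 0.14 (adjusted p = 0.0244) and was not called in HET (0.03 ± 0.13, adjusted p = 0.853). The responses differed by -1.73 ± 0.19 between KO and WT (adjusted p = 1.41e-08) and by -1.41 ± 0.19 between KO and HET (adjusted p = 5.99e-07), where 16.4% and 13.8% of all genes were called. Under median-of-ratios scaling the change in KO was -0.85 (adjusted p = 0.00011). That scaling called a rise in HET (0.65, adjusted p = 0.00197), and the rise in WT was not called under quantile normalization (0.29, adjusted p = 0.0569) or without WT UT replicate 3 (adjusted p = 0.0667), WT UT replicate 4 (adjusted p = 0.0759) or WT LPS replicate 5 (adjusted p = 0.0608).

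Under pIC KO was the highest genotype instead. C3ar1 had 508, 417.5, 456, 737 and 487 TPM in KO, against 348, 219, 300.2, 340.0 and 226 TPM in HET and 315, 235, 229.9, 301 and 260.0 TPM in WT. Every KO library lay above every HET and WT library. KO was higher than WT by 0.94 ± 0.16 (adjusted p = 0.00189) and higher than HET by 0.86 ± 0.16 (adjusted p = 0.00721). The KO mean under pIC, 521 TPM, was near that of untreated KO cells, 522 TPM, and the HET and WT means, 287 and 268 TPM, were below those of untreated HET and WT cells, 534 and 492 TPM, with the limit that pIC stands in the other table.

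C5ar1, the receptor for C5a, was also lower in KO under LPS and higher in KO under pIC. With LPS it had 256, 184, 192, 123 and 165 TPM in KO, 388, 339, 349.8, 285 and 235 TPM in HET and 314, 326, 298, 293 and 247 TPM in WT. Only KO replicate 1 reached into the ranges of HET and WT. KO was lower than WT by 0.72 ± 0.16 (adjusted p = 0.000431) and lower than HET by 0.81 ± 0.16 (adjusted p = 9.92e-05). LPS raised C5ar1 by 0.91 ± 0.16 in HET and 0.86 ± 0.17 in WT, and the change in KO was 0.14 ± 0.16 (adjusted p = 0.437), which under median-of-ratios scaling was a called rise of 0.67 (adjusted p = 0.00138).

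The LPS responses of C5ar1 differed by -0.72 ± 0.23 between KO and WT (adjusted p = 0.0245) and by -0.78 ± 0.22 between KO and HET (adjusted p = 0.0133). The difference from WT was lost without KO UT replicate 1 (adjusted p = 0.0517), KO UT replicate 5 (0.0581), KO LPS replicate 4 (0.0666), WT UT replicate 3 (0.0579) or WT UT replicate 4 (0.0721), with no filter (0.0503) and in a fit of those groups alone (0.0583). Under pIC C5ar1 had 232, 154, 185, 184 and 235.5 TPM in KO, 135.5 to 163 TPM in HET and 132, 183, 126, 134 and 134.0 TPM in WT. KO was higher than WT by 0.47 ± 0.12 (adjusted p = 0.0187), lost without WT replicate 3 (0.0509) and in a fit of the pair alone (0.0545), and higher than HET by 0.43 ± 0.12 (adjusted p = 0.0483), lost without any 1 of 9 of the 10 libraries.

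The ratio of C3ar1 to C5ar1 within a library was 0.785 to 1.30 in KO under LPS, 1.29 to 2.97 in HET and 1.88 to 2.82 in WT. It was lower in KO than in WT by 0.93 ± 0.17 on the log2 scale, without overlap (exact permutation p = 0.00794, adjusted 0.033). The log2 difference of KO from HET was -0.64 ± 0.25, with overlap (exact permutation p = 0.0159, adjusted 0.0408). In untreated cells it was 2.96 to 3.70 in KO, 2.94 to 3.36 in HET and 2.69 to 3.33 in WT. IL4 raised the ratio in each genotype, by 0.40 ± 0.10 in KO, 0.58 ± 0.11 in HET and 0.48 ± 0.11 in WT, with no overlap with the untreated libraries (exact permutation, adjusted p at most 0.0408), although neither receptor was called alone.

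**Figure D4:**
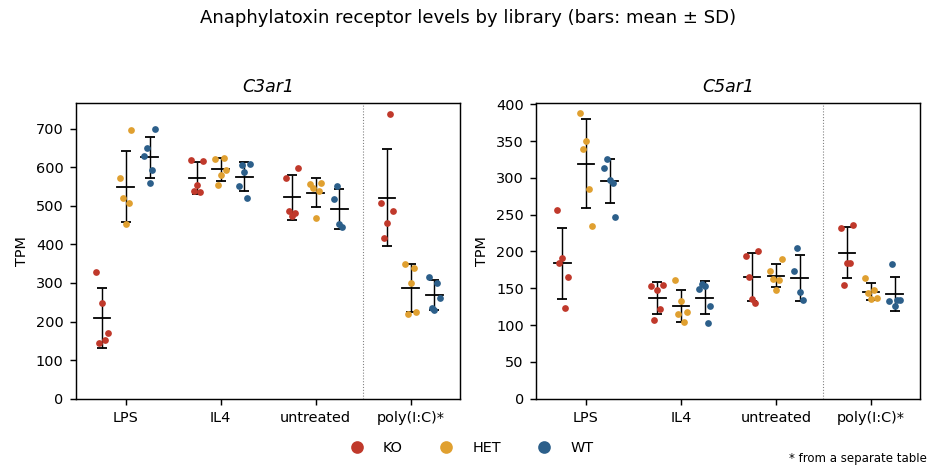
TPM (vertical axis) of C3ar1 and C5ar1 in every library by treatment, with KO, HET and WT from left to right. Points are libraries, bars the mean ± SD. For C3ar1 the KO libraries under LPS (145 to 329 TPM) lie below all WT libraries (558 to 698 TPM), and under pIC the KO libraries (418 to 737 TPM) lie above all WT libraries (230 to 315 TPM).

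Across genotypes within a treatment, 5 members were called between KO and WT under LPS, 2 higher and 3 lower, where 27.6% of all genes were called, 14.4% higher and 13.2% lower. Under pIC 4 were called higher and 0 lower, where 11.5% of all genes were called, 3.4% higher and 8.11% lower. The lean of all genes towards lower there depended on the scaling. Median-of-ratios scaling called 724 genes higher and 470 lower, and quantile normalization 654 higher and 562 lower. Of the members, 4 and 2 were called under these scalings, all higher. Against HET 3 were lower and 0 higher under LPS (24% of all genes called, 12.5% higher and 11.5% lower), and 2 were higher and 0 lower under pIC (5.24% called, 1.65% higher and 3.6% lower). For KO against HET under pIC median-of-ratios scaling called 289 genes higher and 216 lower. Quantile normalization called 274 in each direction there, and each scaling called 1 member, higher. The members' median difference between KO and WT was -0.15 under LPS against 0.01 over all genes, and 0.38 under pIC against -0.11 over all genes. With either of these scalings the pIC median of all genes was -0.02.

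Without LPS or pIC no member was called by limma between genotypes. Over all genes, 0.0314% were called between KO and WT untreated and 0.044% under IL4, and 0.00629% between KO and HET in both. HET and WT differed for 0 members in any treatment or response, where 0.0126% of all genes were called untreated, under LPS and under IL4 and 0% under pIC and in both responses. The IL4 responses also differed for 0 members and 0% of all genes. At an unadjusted threshold of 0.05 limma passed C3 under IL4, for KO against WT (0.64 ± 0.26) and for HET against WT (0.60 ± 0.26), and no other member in any of these comparisons. A member that was not called may still differ by less than these libraries could show.

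**Figure D5:**
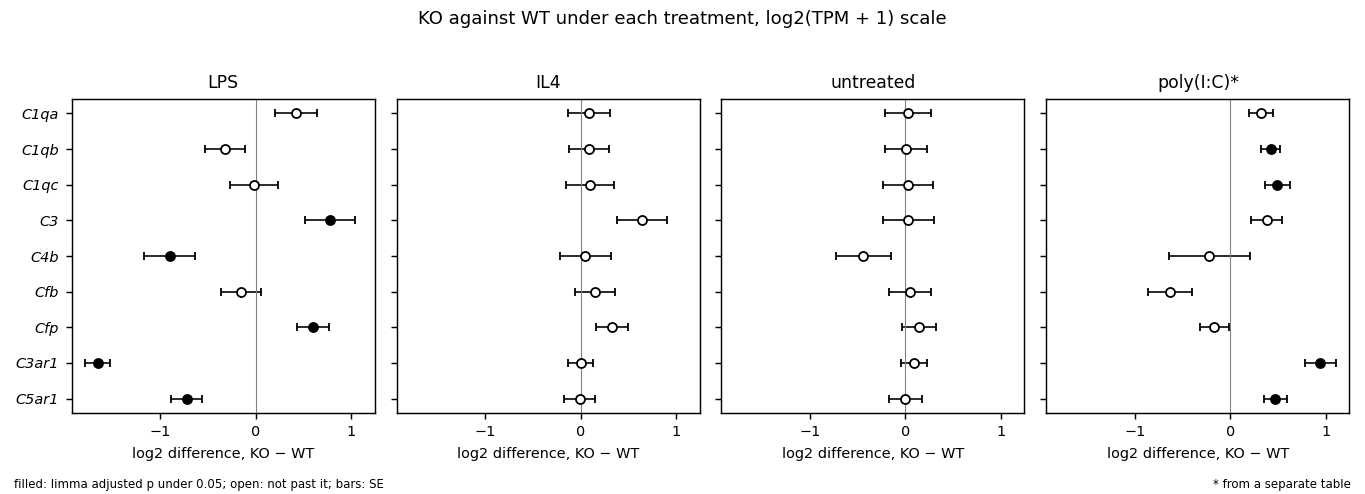
Log2 difference between KO and WT (horizontal axis, log2(TPM + 1) scale) for the 9 members under LPS, IL4, no treatment and pIC. Points are limma estimates, bars the SE, filled points are called at an adjusted p of 0.05. C3ar1 is at -1.65 under LPS and at 0.94 under pIC, and all points for IL4 and untreated cells are open.

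Other complement genes were counted from lists of initiators and proteases, terminal components, regulators and other receptors. Cfd, Mbl1, Mbl2, Colec10 and Cd55b were not analysed here. With LPS in WT, 2 of 5 tested initiators and proteases rose and 3 fell, 1 of 1 terminal component fell, 1 of 8 regulators rose and 5 fell, and 3 of 6 other receptors rose and 2 fell. Their median log2 differences were -0.74, -0.68, -0.80 and -0.09 in that order, against -0.59 over all genes. C2, the protease partner of C4b, rose by 1.58 ± 0.20. The regulator that rose was Serping1, the C1 inhibitor, at 0.531 to 1.12 TPM with LPS and 0 to 0.177 TPM untreated, which passed the filter on low values only through the WT and HET LPS libraries. Itgam, the alpha chain of complement receptor 3, rose by 1.97 ± 0.14. C5ar2, a second C5a receptor, fell by 1.97 ± 0.13. Others counted were C1ra, Itgb2 and Calr, which rose, and C4a, Fcna, Masp1, C8g, Csmd1, Csmd2, Susd4, Cd59a and Cd93, which fell. The falls of C4a (-0.74), C8g (-0.68) and Cd59a (-0.64) were close to the median of all genes, and the directions of these other complement genes were not tested under another scaling. Genes of these counts whose higher group averaged under 5 TPM, Serping1 among them, are named outside the rule for named genes, after their values were seen.

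Between KO and WT under LPS, 1 of 5 initiators and proteases was higher and 1 lower, 2 of 8 regulators were higher and 1 lower, and 3 of 6 other receptors were higher and 0 lower. The medians of these lists were -0.15, -0.11 and 0.33, against 0.01 over all genes.

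C2 had 9.92, 6.13, 6.36, 4.66 and 3.78 TPM in KO under LPS and 16.3, 18.7, 9.06, 16.0 and 14.5 TPM in WT, with KO replicate 1 above the lowest WT library. It was lower in KO by 1.17 ± 0.19 (adjusted p = 4.53e-06). Itgax, the alpha chain of complement receptor 4, was higher by 4.14 ± 0.41 (adjusted p = 2.05e-10), at 29.7, 106.9, 58.3, 256.6 and 232.7 TPM in KO and 2.27 to 8.30 TPM in WT. KO replicates 4 and 5, the highest for Itgax, were the lowest for C1qa, and KO replicate 1, the lowest for Itgax, was the highest for C1qa. Itgb2, the beta chain shared by both receptors, was higher by 0.93 ± 0.16 (adjusted p = 1.22e-05), Calr, which can bind C1q at the cell surface, by 0.62 ± 0.10, C1ra, a protease of the C1 complex, by 0.79 ± 0.20, and Cd59a, an inhibitor of the membrane attack complex, by 0.66 ± 0.18. Serping1 was the regulator counted lower, at 0 to 0.496 TPM in KO and 0.531 to 1.12 TPM in WT, and passed the filter through libraries in which it is high. Under pIC 0 of 4 initiators and proteases, 2 of 7 regulators (1 higher, and Serping1 lower, which passed the filter only through WT and HET libraries) and 3 of 6 other receptors were called between KO and WT. The receptors were Itgam (1.20 ± 0.22), Itgax (1.23 ± 0.16) and Cd93 (1.09 ± 0.17), all higher in KO.

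Markers of microglia and of other cells also differed between these groups. Under LPS 5 of 12 microglia markers were higher in KO than in WT and 0 lower, with summed levels of 2080 to 2641 TPM in KO, 1742 to 2197 TPM in HET and 1597 to 2066 TPM in WT. Of 5 tested border macrophage markers 2 were higher and 2 lower, with sums of 1023 to 1662 TPM in KO, 807 to 1285 TPM in HET and 828 to 952 TPM in WT. Of 3 tested monocyte and neutrophil markers 1, Ly6c2, was higher in KO, by 3.23 than in WT and by 2.63 than in HET. The sums of that list overlapped, at 58.3 to 112 TPM in KO and 70.4 to 106 TPM in WT, and Mpo was at 0 in all LPS libraries. Of 9 vascular and stromal markers Pdgfrb was higher and Cdh5, Kdr and Pecam1 lower, with sums of 11.1 to 23.3 TPM in KO and 9.29 to 11.7 TPM in WT, and of 8 neuron markers Gad1 was lower. Under pIC 4 of 11 tested microglia markers were higher in KO and 1 lower, with sums of 3283 to 6372 TPM in KO and 2717 to 3412 TPM in WT. S100a8, a neutrophil and monocyte marker, was also higher in KO under pIC (1.35), with sums of that list of 9.18 to 27.1 TPM in KO and 3.51 to 11.5 TPM in WT, and so was the astrocyte marker Aldh1l1 (0.53). The part of these cells in the values of the members was not tested.

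The level of each member over the 12 groups formed few steps. For the C1q genes the 3 LPS groups were lowest and lay apart from all others, and neighbours above them overlapped. C3 formed 3 separate steps, the pIC groups at 1396 to 2931 TPM, the LPS groups at 198 to 535 TPM and the IL4 and untreated groups at 3.19 to 48.7 TPM. Cfb was high in the pIC and LPS groups, which overlapped, and at most 1.52 TPM in the rest, and Cfp was high in the LPS groups and at most 121 TPM in the rest. For C3ar1 the lowest 3 groups were HET pIC, WT pIC and KO LPS, and for C4b all neighbours overlapped. For C5ar1 HET LPS and WT LPS had the highest means. KO LPS replicate 1 reached into the ranges of both, and the top of KO pIC only into that of HET LPS.

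The genes most like each member were taken by Pearson correlation of log2(TPM + 1) over the 44 LPS, IL4 and UT libraries among 10076 genes, as a description of libraries that share 3 treatments. C1qb and C1qc were closest to Lgmn, a lysosomal protease (0.970 and 0.983), and C1qa to Rab11fip5 (0.966). C3 was closest to Il2rg, the common cytokine receptor chain (0.988), Cfb to Sod2, a mitochondrial superoxide dismutase (0.995), and Cfp to Hcls1 (0.987). C3ar1 was closest to Tnfrsf11a, the receptor RANK (0.941), with Zfp36 next at 0.887, and C5ar1 to Vav1 (0.926). C4b had no close match, with Cdc42se1 at 0.884.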

How the data were processed

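RNA of cultured microglia was sequenced from an mRNA kit, per the labels' protocols, and the authors deposited TPM per gene in 2 tables, with FastQC, Trimmomatic, DRAGEN, Picard and the build mm10 named in the submitters' processing notes. Depth is unknown, since TPM keeps none. Deposited TPM values summed to 999806 to 999936 per library. Replicates are separate cultures per the series' design text.

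Genes with at least 1 TPM in 4 or more libraries were tested on log2(TPM + 1) with limma 3.58.1 in R 4.3.3, with 1 fit per table over all its groups, Benjamini-Hochberg adjustment over all genes tested and a threshold of 0.05, for 24 comparisons. Ratios within libraries were compared by exact two-sided permutation tests (scipy 1.17.1), and were chosen after the data were seen. The script was tested on simulated data. Other settings tried were no filter, a pseudocount of 0.1, median-of-ratios scaling, quantile normalization, the replicate number as a block, a fit of the compared groups alone and each library left out.

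Named complement genes outside the members were those called whose higher group averaged 5 TPM or more. Members and lists were chosen with earlier results of these data known. Promoters are RefSeq's, GRCm38.p6. Same-numbered libraries were taken to deviate together where their lowest pair correlation exceeded 0.1, judged from the data and not from the labels. This held between LPS and UT in KO (0.13) and WT (0.117) and between IL4 and UT in KO (0.173) and WT (0.191). It also held between HET and WT untreated (0.121). The other comparisons missed this rule, yet in each the mean correlation of same-numbered pairs was above that of other pairs. These means ran from 0.09 against -0.02 (KO against HET under LPS) to 0.28 against -0.07 (IL4 against UT in HET). Neither the main fit nor the permutation tests used the replicate number, and its part in the permutation tests was not tested. Results on another complement gene are not reported here.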

Additional observations from a re-analysis of the deposited data

Results flagged for a closer look

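In 7 of 108 combinations of a member and a group, 1 library stood far from the others of its group, and chance gives about 1 in 20. C1qa with IL4 in WT had 2711 TPM in replicate 4, against 3088 to 3232 TPM in the others. C4b had 0.153 TPM in KO IL4 replicate 5, against 0.711 to 0.977 TPM, and 2.67 TPM in WT UT replicate 1, against 0.843 to 0.957 TPM. Cfb was listed at 0 in KO IL4 replicate 3, against 0.448 to 0.516 TPM. Cfp had 41.7 TPM in WT UT replicate 1, against 49.7 to 51.1 TPM. C3ar1 had 469.7 TPM in HET UT replicate 3, against 539 to 559 TPM. C5ar1 had 183 TPM in WT pIC replicate 2, against 126 to 134 TPM.

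The LPS response differed between genotypes in 4 of 27 tests of members by limma's interaction terms, and the IL4 response in 0 of 27. Of all genes, 16.4% were called for the LPS response of KO against WT and 13.8% for KO against HET. For C3ar1 the difference was -1.73 between KO and WT and -1.41 between KO and HET, and for C5ar1 it was -0.72 and -0.78. C3ar1 also differed between KO and WT in opposite directions, -1.65 under LPS and 0.94 under pIC, with every KO library outside the WT range in both. The difference between those values was not tested, because the stimuli stand in separate tables.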

How the results depend on the processing

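No result reversed. Over settings other than left-out libraries 1260 values of members kept their call, 15 gained one and 21 lost one, and over the 59 left-out libraries 2580 kept it, 12 gained and 36 lost. The number of members called in KO with IL4 against UT was 2, and 1 with no filter or quantile normalization and 4 in a fit of those groups alone. In HET it was 1, and 2 in a fit of those groups alone. In WT it was 1, and 2 in such a fit. The LPS response of KO against WT had 2 members called, and 1 with no filter or in such a fit. Under pIC KO against WT had 4, and 2 with quantile normalization, and KO against HET had 2, and 1 with no filter, median-of-ratios scaling, quantile normalization or such a fit.

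Leaving out 1 library gave 7 members called in KO, 8 in HET and 8 to 9 in WT for LPS against UT, 1 to 2 in KO and HET and 1 in WT for IL4 against UT, 4 to 6 for KO against WT and 2 to 4 for KO against HET under LPS, 3 to 5 and 1 to 2 under pIC, and 1 to 2 and 2 to 3 for the LPS response. It was 0 in the other comparisons. The differences of C3ar1 between KO and the other genotypes under LPS and pIC, and in the LPS response, were called in every fit run. The ratio of C1qa to C1qb under LPS was 0.68 to 0.79 higher in KO than in WT with 1 library left out.

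With the replicate number as a block, HET with IL4 had 3 members called and pIC KO against HET had 1. Between IL4 and UT in HET, same-numbered libraries correlated at 0.28 on average, against -0.07 for other pairs. Between KO and HET under pIC these means were 0.10 and -0.02. The block called Cfp (0.48, adjusted p = 0.0351) and C5ar1 (-0.42, adjusted p = 0.024) in HET with IL4, C4b in the LPS response of KO against HET (-0.70, adjusted p = 0.0443) and C3 under pIC, and lost C5ar1 of KO against HET under pIC (adjusted p = 0.0524). It changed no other call. TPM keep no depth, so the counting error of low genes such as C4b cannot be given.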
